A study of Homo sapiens with 4 samples.

Results

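The spliceosome genes described here code for the protein cores of the small nuclear ribonucleoproteins (snRNPs), the LSM proteins and the SF3 complexes of the U2 snRNP. Members were all genes in the feature table whose symbol began with SNRP followed by a letter from A to G, N or a digit, with LSM followed by a digit, or with SF3A or SF3B followed by a digit. This gave 34 of 36601 genes, and all 34 reached a mean of 10 CPM over the libraries, where CPM is the unique molecular identifiers (UMIs) of a gene scaled to a library total of 1000000, as did 8507 genes in all. They comprised 8 Sm ring genes, 4 genes specific to the U1 or U2 snRNP, 8 LSM ring genes, 5 other LSM genes, 3 SF3A genes and 6 SF3B genes. Symbols that begin with SNRNP, such as SNRNP70, do not match this rule and were treated as pathway neighbours.

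Pre-mRNA splicing is carried out by the spliceosome, in which each spliceosomal snRNP joins a small nuclear RNA to a set of proteins. The Sm proteins close into a ring around the U1, U2, U4 and U5 RNAs, whereas the nuclear LSM ring holds the U6 RNA, and a cytoplasmic LSM ring with LSM1 in place of LSM8 promotes the decapping of mRNA. SF3A and SF3B are parts of the U2 snRNP, and SF3B helps to seat it on the branch point of the intron. Splicing is needed in nearly every cell type, and these genes are widely expressed.

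The study exposed BEAS-2B cells, an immortalised line from human bronchial epithelium, to gamma rays from a Cs-137 source and sequenced single cells with a droplet method that counts the 3′ ends of polyadenylated RNA. The groups were an unirradiated control and cells given 10 mGy, 100 mGy or 1 Gy, with the irradiated cells taken 30 min later, and each group was 1 library. Dose and library therefore cannot be told apart, no p-value was computed, and the 95% intervals given here cover the counting of UMIs only. The line carries a viral oncogene and is a culture model, without the other cells of the airway.

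In the order control, 10 mGy, 100 mGy and 1 Gy, which all lists of 4 values below follow, the libraries held 11111, 21514, 19950 and 15510 barcodes, with totals between 211752280 and 285806026 UMIs. Between 76 and 134 barcode sequences were shared by any pair of libraries. Barcodes with under 1 in 3 of their library's median UMI count made up 19.6%, 41.4%, 27.4% and 25.4% of them. The libraries fell into 2 pairs on several measures: ribosomal protein genes took 13.9% and 14.0% of UMIs in the control and 1 Gy libraries against 19.97% and 21.8% at 10 and 100 mGy, and the nuclear RNA MALAT1 stood at 12576 and 11949 CPM against 7801 and 7401. Mitochondrially encoded genes took 5.91%, 4.55%, 4.402% and 5.78% in that order. The part of these differences in the results below was not tested. Of the epithelial markers, KRT7, KRT8 and KRT18 were between 219 and 645 CPM in every library, while CDH1 was at most 0.0490, EPCAM at most 1.17 and KRT19 at most 2.41; the mesenchymal genes VIM and CDH2 were between 131 and 2702. FN1, another mesenchymal gene, was at 1546, 623, 640 and 1466, lower in both low-dose libraries, and its part in the results was not tested. Markers of other cell types stayed at or below 0.490, except CD68, at 7.02 to 10.8.

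In the 2 low-dose libraries the genes of the small ring proteins stood above the control when libraries were scaled by their totals. Most genes of the large subunits stood below it, as most genes did. At 1 Gy neither group was more than 1.2-fold from the control. Summed, the 34 genes held 0.643%, 0.825%, 0.860% and 0.627% of the UMIs of each library. Unless a filter or a value per barcode is named, a level is a pooled one, with the UMIs of a gene summed over all barcodes of a library, and levels were compared between libraries. Ratios are those under library totals unless the median ratio is named. A gene was counted as higher or lower when its ratio to the reference passed 1.2-fold, the fold threshold of the study's methods. Where 2 ratios follow a gene, they are those at 10 mGy and at 100 mGy.

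At 10 mGy, 19 of the 34 genes were higher than in the control and 9 were lower. Of all 8507 genes, 15.4% were higher and 53% lower in the same comparison. At 100 mGy, 18 genes were higher and 9 lower, against 14% and 58.9% of all genes. The shares of all genes are not centred, because the median of all log2 ratios lay at -0.30 for 10 mGy, -0.38 for 100 mGy and 0.02 for 1 Gy when libraries were scaled by their totals. When they were scaled by the median ratio of all genes instead, 23 members were higher and 2 lower at 10 mGy (30.6% and 27.3% of all genes), and 24 were higher and 2 lower at 100 mGy (31.8% and 29%). The higher side thus stayed well populated under both scalings, and most of the lower calls were made under totals only. All 16 ring genes were above the control at both low doses under either scaling. Of all 8507 genes, 2392 and 2153 were above it at 10 and 100 mGy under totals, and 4234 and 4255 under the median ratio.

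**Figure D1:**
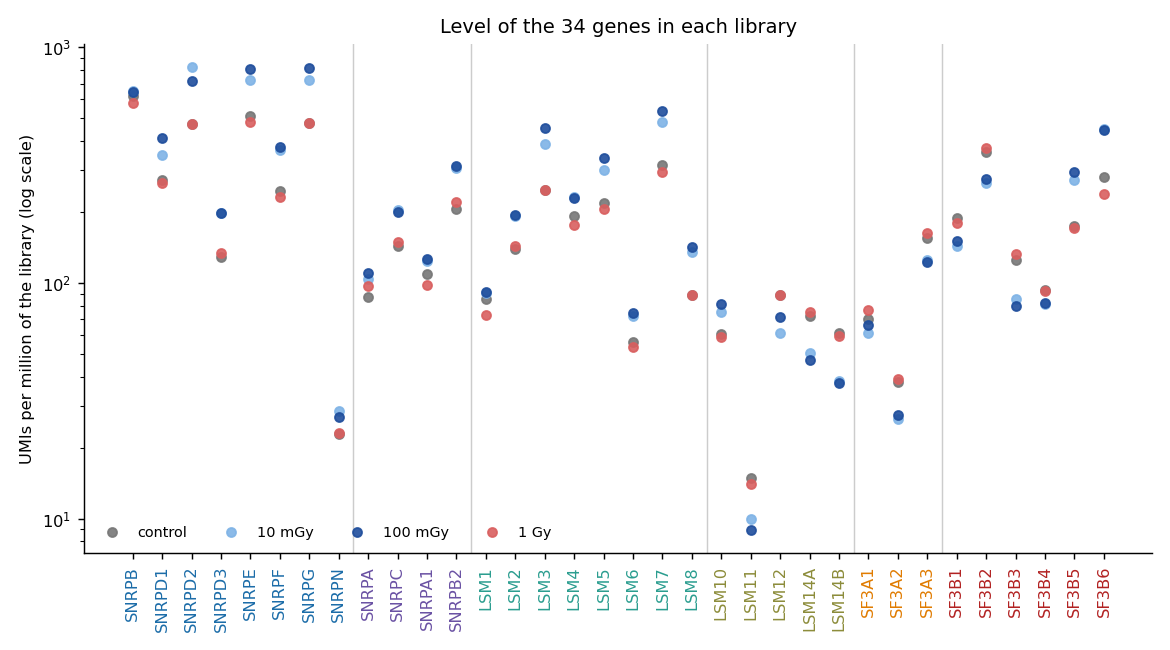
Level of each of the 34 genes in the 4 libraries, in CPM on a log scale, with genes ordered by role and each point 1 library (no error bars are drawn). For all 16 ring genes the 2 low-dose points lie above the control and 1 Gy points, as for SNRPG at 729 and 812 against 477 and 475, and for LSM14A, LSM14B and SF3B3 they lie below.

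The Sm ring gave the first group of rises. Its 8 genes were all above the control at both low doses, with a median ratio of 1.45 at 10 mGy and 1.53 at 100 mGy, against 0.810 and 0.766 for all genes. SNRPD2, the gene of Sm protein D2 at chr19:45687454-45692569 (GENCODE 29, GRCh38), was at 474, 823, 721 and 473 CPM. The ratio was 1.74 at 10 mGy (1.72 to 1.75) and 1.52 at 100 mGy (1.51 to 1.53). SNRPG, which encodes Sm protein G, was at 477, 729, 812 and 475, with ratios of 1.53 (1.52 to 1.54) and 1.70 (1.69 to 1.72). In both genes the low-dose libraries were high and the 1 Gy library lay next to the control.

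SNRPE, the E subunit of the ring, was at 512, 724, 805 and 483 CPM. SNRPF, its F subunit, was at 245, 366, 375 and 232, and SNRPD3, which codes for D3, was at 129, 198, 197 and 134. These 3 genes had ratios between 1.41 and 1.57 at the low doses. SNRPD1, for the D1 protein, was at 274, 348, 410 and 264, which gave 1.27 (1.26 to 1.28) at 10 mGy and 1.5 (1.48 to 1.51) at 100 mGy. Its 100 mGy level was 1.18 times the 10 mGy level (1.17 to 1.19), among the widest gaps between the low doses.

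SNRPB, the gene of the B and B′ proteins, had the smallest low-dose ratios of the Sm ring. It was at 623, 650, 646 and 579 CPM, so that both low-dose ratios were 1.04 under totals, and 1.28 and 1.35 under the median ratio. There all 8 Sm ring genes were higher at both low doses, as were 30.6% and 31.8% of all genes. Its relative SNRPN, an imprinted gene that can stand in for B mainly in the nervous system, was at 22.9, 28.7, 27.0 and 23.0, with 1.25 (1.21 to 1.30) at 10 mGy and 1.18 (1.13 to 1.22) at 100 mGy. SNRPN shares exons on the same strand with SNURF and SNHG14 and is similar in sequence to SNRPB, and SNRPD3 shares exons with GGT1 on the same strand, so the assignment of reads to these genes is uncertain. SNRPD1, SNRPD2, SNRPE, SNRPF and SNRPG belong to families with processed pseudogenes, and the handling of reads from these was not stated.

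The genes of proteins specific to U1 or U2 also stood above the control. SNRPC, which encodes the C protein of the U1 snRNP, which steadies the pairing of U1 with the 5′ splice site, was at 143, 203, 200 and 150 CPM. SNRPB2, for the B″ protein of U2, was at 206, 308, 313 and 221, with 1.5 (1.48 to 1.51) and 1.52 (1.5 to 1.54). SNRPA, for the A protein of U1, which binds a U1 stem loop, was at 87.0, 104, 110 and 97.4, and its ratio of 1.12 (1.10 to 1.14) at 1 Gy was the highest of the 34 genes there. SNRPA1, whose A′ protein pairs with B″ in the U2 snRNP, was at 109, 124, 127 and 97.6 and stayed under 1.2-fold at each dose under totals, with 1.14, 1.17 and 0.897. Of these 4 genes, 2 were higher at 10 mGy, 3 at 100 mGy and none at 1 Gy, and none was lower. Of all genes 15.4%, 14% and 1.28% were higher at these doses, and 53%, 58.9% and 0.846% lower. All 4 were higher at both low doses under the median ratio, as were 30.6% and 31.8% of all genes.

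The LSM ring repeated the pattern of the Sm ring. All 8 genes were above the control at both low doses, with medians of 1.39 and 1.48. Past 1.2-fold were 7 of them at 10 mGy and 6 at 100 mGy, where 15.4% and 14% of all genes were higher. LSM3, a subunit of both LSM rings at chr3:14178358-14201119, was at 248, 388, 456 and 247 CPM. Its ratio at 100 mGy, 1.84 (1.82 to 1.86), was the highest of the 34 genes. LSM7, another shared subunit, was at 316, 480, 536 and 294, with 1.52 and 1.70. Both genes share exonic sequence with a neighbour on the other strand, XPC for LSM3 and SPPL2B for LSM7, as do LSM1, SF3A1, SF3A2, SF3B2, SNRPA, SNRPD2, SNRPD3 and SNRPF, and whether the counting used strand was not stated.

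LSM8 and LSM1, the genes of the subunits by which the 2 LSM rings differ, did not move alike. LSM8, found only in the ring on U6, was at 88.5, 135, 143 and 88.4 CPM, which gave ratios of 1.53 (1.5 to 1.55) at 10 mGy and 1.61 (1.58 to 1.64) at 100 mGy. LSM1, found only in the cytoplasmic ring, was at 85.2, 90.2, 91.3 and 72.9, with 1.06 (1.04 to 1.08), 1.07 (1.05 to 1.09) and, at 1 Gy, 0.857 (0.838 to 0.875). The intervals of their ratios did not overlap at any dose. These intervals cover counting only and are narrow at such UMI counts, so the lack of overlap does not measure variation between libraries. Under totals LSM8 passed 1.2-fold at both low doses and LSM1 at none, but under the median ratio LSM1 passed too, at 1.30 and 1.4, beside 1.88 and 2.10 for LSM8. No test of the difference over replicates was possible.

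The genes of the remaining shared subunits lay between these. LSM5 was at 218, 302, 339 and 205 CPM, and LSM2 was at 139, 192, 194 and 143. LSM6 was at 56.0, 72.5, 74.5 and 53.2, with ratios of 1.30 and 1.33. LSM4 was at 192, 231, 229 and 176, and its ratios of 1.21 (1.19 to 1.22) and 1.196 (1.18 to 1.21) fell on either side of the threshold under totals.

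The genes of the LSM proteins outside these rings split. LSM10, which takes the place of an Sm protein in the U7 snRNP of histone mRNA processing, was at 60.9, 75.6, 81.0 and 59.2 CPM. LSM11, its partner in the same U7 ring, was at 14.8, 9.92, 8.95 and 14.0, so its ratios were 0.668 (0.635 to 0.703) and 0.603 (0.571 to 0.637) where those of LSM10 were 1.24 (1.21 to 1.27) and 1.33 (1.30 to 1.36). The 2 U7 partners thus stood on opposite sides of the control in both low-dose libraries, at the lowest depth of any member for LSM11. LSM14A and LSM14B, which belong to the RNA granules that store or repress mRNA, were at 72.6, 50.4, 47.1 and 75.5 and at 61.2, 38.3, 37.5 and 59.3. LSM11, LSM14A and LSM14B were below the control at both low doses under either scaling, with median-ratio values between 0.771 and 0.856. LSM12 was at 89.2, 61.0, 71.6 and 89.1, lower than the control at both low doses under totals, but its 100 mGy ratio of 0.802 became 1.05 when libraries were scaled by the median ratio.

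**Figure D2:**
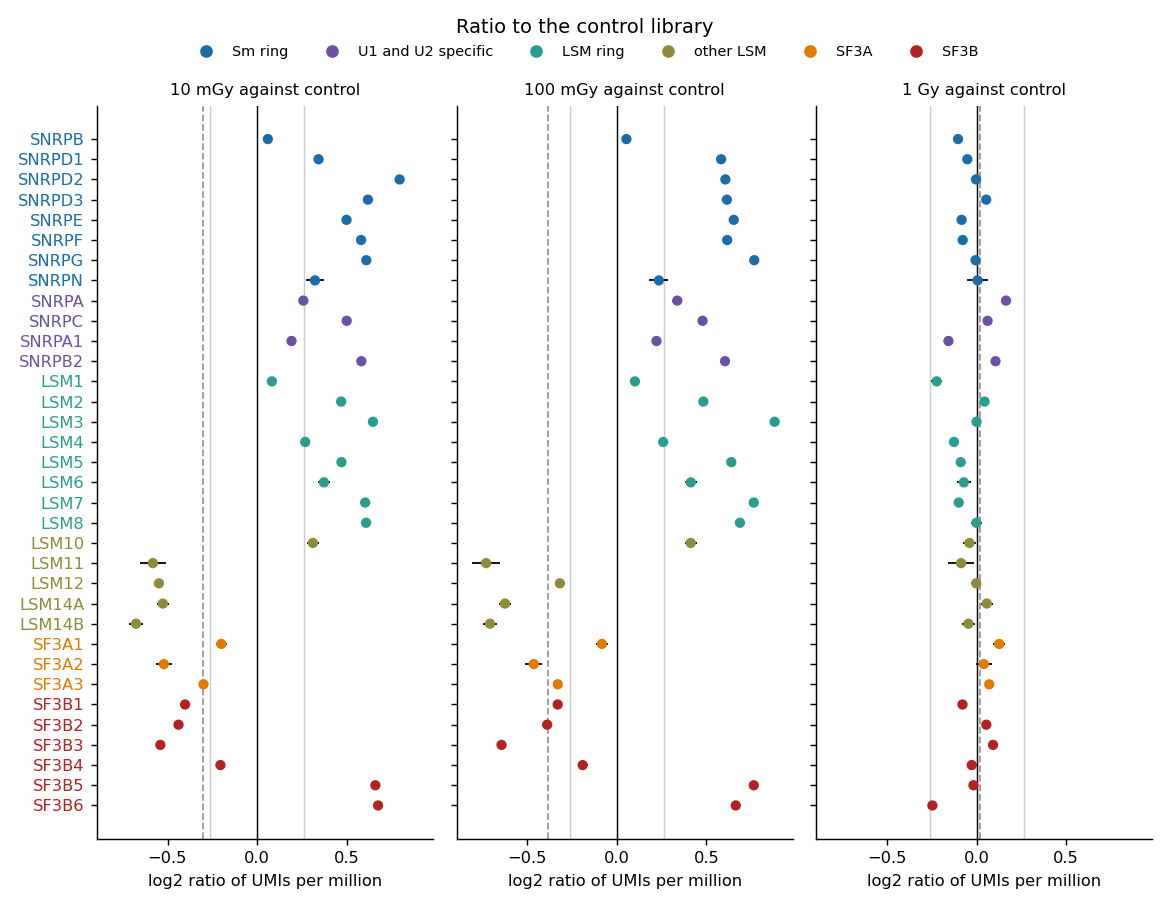
log2 ratio of CPM to the control for each gene at each dose, coloured by role, with bars for the 95% counting interval, solid grey lines at 1.2-fold and a dashed line at the median of all genes tested. The Sm and LSM ring genes lie right of 0 at both low doses while SF3A and most SF3B genes lie left of it, near the dashed line, and at 1 Gy all 34 lie between the grey lines.

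The genes of the SF3 complexes did not move as a unit. SF3A, the complex that ties SF3B to the rest of the U2 snRNP, had 3 of 3 genes below the control at both low doses under totals. So were 6115 of all 8507 genes at 10 mGy and 6354 at 100 mGy. The median ratios of the 9 SF3 genes, 0.813 and 0.795, lay near the 0.810 and 0.766 of all genes. SF3A1 was at 70.4, 61.3, 66.4 and 76.7 CPM and did not pass 1.2-fold at any dose under totals. SF3A2 was at 38.1, 26.6, 27.6 and 39.2, with 0.697 (0.676 to 0.720) and 0.725 (0.702 to 0.749), and SF3A3 was at 155, 126, 123 and 162, with 0.813 (0.801 to 0.825) and 0.795 (0.783 to 0.808). When libraries were scaled by the median ratio, SF3A2 kept a ratio below 1, at 0.859 and 0.946, while SF3A3 was at 1.00 and 1.04 and SF3A1 at 1.07 and 1.23.

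Of the 6 SF3B members, SF3B5 and SF3B6, those with the shortest coding sequences, stood above the control at the low doses. Under totals the other 4 stood below it, as most genes did. SF3B6, the p14 protein that contacts the branch point, lies at chr2:24067584-24076443 and was at 282, 450, 447 and 237 CPM. Its ratios were 1.60 (1.58 to 1.61), 1.58 (1.57 to 1.60) and, at 1 Gy, 0.842 (0.832 to 0.852), the lowest of the 34 genes at that dose. SF3B5, a small scaffold subunit at chr6:144094881-144095573, was at 174, 274, 295 and 171, with 1.58 (1.56 to 1.60) and 1.70 (1.68 to 1.72).

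SF3B1, the large subunit that embraces the branch point helix, was at 189, 143, 150 and 179 CPM. SF3B2, which binds SF3B4 and is one of the genes the study singled out, lies at chr11:66050729-66069308 and was at 360, 266, 275 and 374, with 0.738 (0.731 to 0.745), 0.764 (0.756 to 0.771) and 1.04 (1.03 to 1.05). SF3B3, a large scaffold, was at 125, 85.6, 79.7 and 133, with 0.688 (0.676 to 0.7) and 0.640 (0.628 to 0.652), and SF3B4, an RNA-binding subunit, was at 93.7, 81.4, 82.1 and 92.0, with 0.868 and 0.876. Under the median ratio SF3B1 was at 0.932 and 1.04 of the control, SF3B2 at 0.909 and 0.997, SF3B3 at 0.847 and 0.835 and SF3B4 at 1.07 and 1.14, so SF3B3 stayed below the control at both low doses, as did SF3A2, SF3B2 lay next to it at 100 mGy, and the side of SF3B1 and SF3B4 depended on the scaling. SF3B5 and SF3B6 stood above the control under both scalings.

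With this split the summed level of the 9 SF3 genes was at 1486, 1514, 1546 and 1464 CPM, ratios of 1.02 and 1.04 at the low doses under totals but of 1.26 and 1.36 under the median ratio. The summed Sm ring went from 2757 to 3866, 3995 and 2663, with 1.402 and 1.45 under totals and 1.73 and 1.89 under the median ratio. The quotient of the Sm ring sum and the SF3 sum was 1.86 in the control, 2.55 and 2.58 at the low doses and 1.82 at 1 Gy, and that of the LSM ring was 0.903, 1.25, 1.34 and 0.874. These quotients do not depend on how libraries are scaled and serve to compare libraries, not the level of one group of genes with another.

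Under totals, at 1 Gy none of the 34 genes was over 1.2-fold from the control in either direction, where 1.28% of all genes were higher and 0.846% lower. The ratios ran from 0.842 for SF3B6 to 1.12 for SNRPA, with a median of 0.992 beside 1.01 for all genes. Of the 16 ring genes, 13 were below the control at 1 Gy and 3 above, where 43.8% of all genes were below and 56.2% above. Under totals the low-dose libraries did not differ by over 1.2-fold in any member: 0 of 34 were higher at 100 mGy than at 10 mGy and 0 lower, against 1.35% and 12.7% of all genes. LSM3 and SNRPD1, both at 1.18, and SNRPD2, at 0.877, were the extremes.

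Set over all libraries, 23 of the 34 genes were above both the control and the 1 Gy library at each low dose, a pattern that 20.7% of all genes held. The other 11 were below both at each low dose, as were 67.6% of all genes. Under the median ratio 25 of the 34 were above both, as were 41.6% of all genes, and 6 below both, as were 41.7%. This separation groups the 10 and 100 mGy libraries against the control and 1 Gy libraries, the same way as the shares of ribosomal protein genes and MALAT1 did, and the part of library preparation in it was not tested.

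Pathway neighbours stood on both sides of the control. Among 25 genes of other snRNP proteins, 5 were higher and 8 lower at 10 mGy and 8 and 8 at 100 mGy. Their median ratios were 0.927 and 0.934. Under the median ratio these counts became 12 and 3, and 14 and 1. Over all genes, which the counts of this and the next lists are to be read against, 15.4% were higher and 53% lower at 10 mGy and 14% and 58.9% at 100 mGy, and under the median ratio 30.6% and 27.3%, and 31.8% and 29%. PPIH, a cyclophilin of the U4/U6 snRNP, had the largest rise there at 100 mGy, with 52.1, 81.5, 92.9 and 52.2 CPM, and SART1, a protein of the tri-snRNP, had the largest fall, with 78.7, 39.2, 37.0 and 81.8. SNU13, which binds the U4 RNA, was at 246, 338, 384 and 242, a ratio of 1.37 at 10 mGy and 1.56 at 100 mGy. PRPF8 and SNRNP200, genes of large tri-snRNP proteins, had ratios of 0.667 and 0.689 at 10 mGy and of 0.783 and 0.703 at 100 mGy. SNRNP70, which completes the U1 snRNP, had 0.762 and 0.775. Under the median ratio PRPF8 was at 0.822 and 1.02, SNRNP200 at 0.848 and 0.917 and SNRNP70 at 0.939 and 1.01. PHF5A, a small partner of SF3B1 in the SF3B complex, was at 35.2, 35.5, 37.4 and 35.6.

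Factors that recruit U2 to the intron, of which 7 of 8 listed were tested, had 0 genes higher and 3 lower at each low dose, with medians of 0.845 and 0.843. Under the median ratio 1 was higher and 1 lower at 10 mGy, and 2 and 1 at 100 mGy. U2AF2, which reads the polypyrimidine tract, was the largest fall among them at 100 mGy, with 108, 55.4, 57.4 and 108 CPM, and DDX46 was the nearest to the control, at 0.976. In the assembly pathway that loads Sm proteins onto RNA, 17 of 19 listed genes were tested. Of these, 3 were higher and 10 lower at 10 mGy, and 2 and 6 at 100 mGy, with medians of 0.819 and 0.905. Under the median ratio the counts were 6 and 3, and 7 and 2. GEMIN6, a small protein of the SMN complex, had the largest rise at 100 mGy, with 27.9, 34.9, 41.9 and 30.2, and SART3, which recycles U6, the largest fall at that dose, with 46.2, 29.5, 27.6 and 49.4. CLNS1A, the chaperone that first gathers Sm proteins, was at 67.3, 81.6, 80.4 and 65.1. SMN1 averaged under 10 CPM and has a near-identical copy, so no ratio was read from it.

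In the Prp19 complex, 9 of 10 listed genes were tested. Of these, 1 was higher and 3 lower at 10 mGy and 0 and 4 at 100 mGy, with medians of 0.861 and 0.857. Under the median ratio the counts were 2 and 0, and 4 and 1. At 100 mGy the highest ratio of the list was 1.17, for SYF2 (1.27 at 10 mGy), and the lowest was 0.626, for CTNNBL1. Of the 8 genes of decapping proteins that work with the cytoplasmic LSM ring, the 7 tested were lower at both low doses. So were 53% and 58.9% of all genes. At 100 mGy these 7 ran from DDX6 at 0.508 to EDC3 at 0.784. Their medians were 0.648 and 0.667. The other, DCP1B, averaged under 10 CPM and was not tested, with 5.22, 5.21, 5.51 and 5.19 CPM. Under the median ratio 5 of the 7 were lower at 10 mGy and 2 at 100 mGy, and EDC3 was above the control at 100 mGy, at 1.02. Of the 6 histone 3′ end genes tested, out of 7 listed, 0 were higher and 4 lower at each low dose, with medians of 0.721 and 0.711. Under the median ratio 1 was higher and 2 lower. At 100 mGy CASP8AP2, at 0.550, was the largest fall and SLBP, at 0.978, the nearest to the control. At 1 Gy no gene of these lists was higher, and CASP8AP2, at 0.825, was the only one lower.

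The members' coding length, which the rule did not use, ordered much of the split. Of the 17 members with a coding sequence under 450 bases, 16 were higher at 10 mGy and 15 at 100 mGy, and none was lower. All 646 genes of that length had a median ratio of 1.31 and 1.32, with 60.8% and 61.5% of them higher and 11.9% and 12.2% lower. The members of that class had medians of 1.5 and 1.53. Of the 10 members from 900 bases up, none was higher and 8 were lower at each low dose. Of all genes from 900 to 1800 bases 50.6% and 58.6% were lower at the low doses, and from 1800 bases up 82.8% and 88.1%. Only 8.35% and 5.65% of the former and 0.881% and 0.814% of the latter were higher. The members lower in these classes were 5 of 6 and 3 of 4 at each low dose, all under totals.

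The longer members lay on both sides of their length class. The 4 members with coding sequences from 1800 bases up, SF3A1, SF3B1, SF3B2 and SF3B3, had median ratios of 0.747 and 0.779, where the 2950 genes of that length had 0.672 and 0.624. The 6 from 900 to 1800 bases, LSM11, LSM14A, LSM14B, SF3A2, SF3A3 and SF3B4, had 0.696 and 0.686 against 0.829 and 0.785. Spearman's rho between the log2 ratio and coding length over the 34 genes was -0.77 at 10 mGy and -0.85 at 100 mGy, and -0.63 and -0.63 over the 8322 genes with a coding length. At 1 Gy it was 0.35 over the members and 0.05 over all genes. With the length of all annotated exons in place of the coding length, the members gave -0.51 and -0.48 and all genes -0.55 and -0.57, so the members' correlation was the stronger one with coding length only. The points of each correlation share the same pair of libraries and are not replicates.

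**Figure D3:**
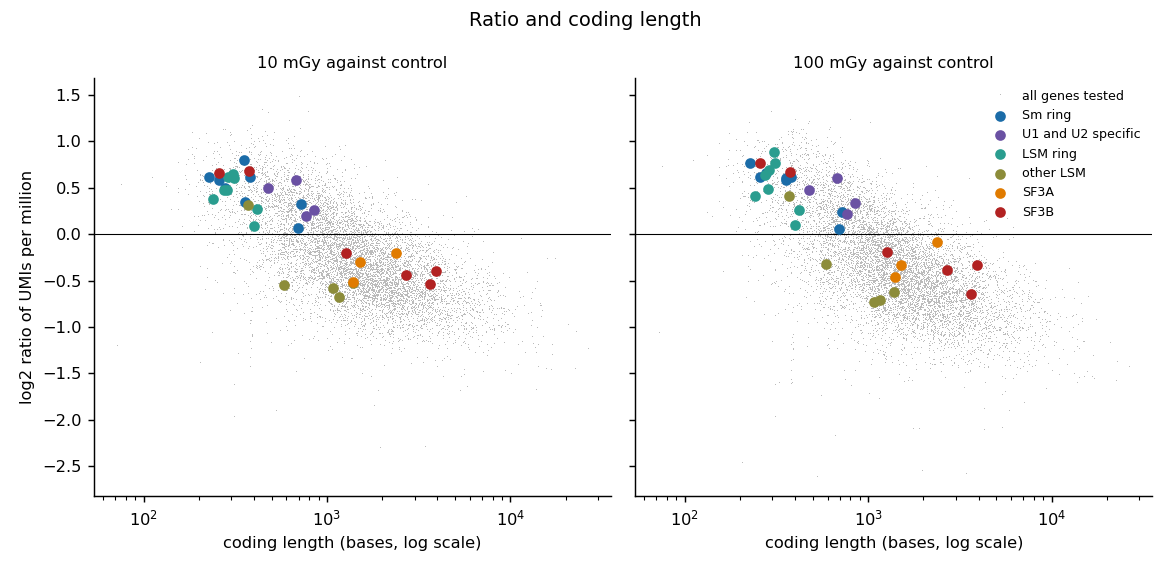
log2 ratio to the control against coding length in bases (log scale) at 10 mGy and 100 mGy, with each grey dot 1 gene tested and each coloured dot 1 of the 34 genes. The grey cloud slopes down in both panels, and most ring genes and SF3B5 and SF3B6 lie at its short, upper end.

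PHF5A, with a coding sequence of 330 bases and ratios of 1.01 and 1.06, and LSM1, with 399 bases and 1.06 and 1.07, were short genes that stayed within 1.2-fold under totals, while under the median ratio PHF5A was at 1.24 and 1.39 and LSM1 at 1.30 and 1.4. LSM12, with 585 bases, was below the control at both low doses under totals.

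Promoters were searched because the ring genes moved together. RefSeq promoter sequence, the 250 bases before the start on GRCh38.p14, was matched by symbol for 29 of the 34 genes, and 27305 promoters were used in all. Of the 29, 14 (48.3%) held CCGGAAG, the core letters bound by ETS factors, on either strand, against 18.6% of the 6923 promoters of genes at or over 10 CPM and 8.82% of all. The motif was in 5 of 13 ring promoters and in 6 of 8 SF3 promoters, so it was found on both sides of the split. Some windows that held it, as of SNRPG, SF3A3, SF3B2 and SF3B4, lie within the gene as GENCODE 29 places it. That of SNRPE does so almost wholly, so part of these letters can be transcribed bases of the gene itself. CCAAT was in 10 of 29 (34.5%), near the 35.8% of expressed genes. CACGTG and TATAAA were each in 1 of 29, with 9.56% and 4.68% of expressed genes holding them. Most of these windows overlap annotated exons, so the 3 shown are ones with at most 14 such bases: LSM10 and SF3B5, which were higher at the low doses, and LSM14B, which was lower. Capitals mark the CCAAT letters.
LSM10, chr1:36397909-36398158, minus strand: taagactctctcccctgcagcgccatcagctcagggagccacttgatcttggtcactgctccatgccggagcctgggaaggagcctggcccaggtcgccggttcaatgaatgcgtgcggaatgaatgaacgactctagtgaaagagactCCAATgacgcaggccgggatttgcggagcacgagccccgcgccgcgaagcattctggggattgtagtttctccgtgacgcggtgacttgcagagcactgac
SF3B5, chr6:144095574-144095823, minus strand: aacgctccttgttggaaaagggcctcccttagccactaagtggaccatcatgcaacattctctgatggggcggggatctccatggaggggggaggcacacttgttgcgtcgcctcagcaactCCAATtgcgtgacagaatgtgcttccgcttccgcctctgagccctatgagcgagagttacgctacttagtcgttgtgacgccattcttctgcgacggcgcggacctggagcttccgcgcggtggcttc
LSM14B, chr20:62122225-62122474, plus strand: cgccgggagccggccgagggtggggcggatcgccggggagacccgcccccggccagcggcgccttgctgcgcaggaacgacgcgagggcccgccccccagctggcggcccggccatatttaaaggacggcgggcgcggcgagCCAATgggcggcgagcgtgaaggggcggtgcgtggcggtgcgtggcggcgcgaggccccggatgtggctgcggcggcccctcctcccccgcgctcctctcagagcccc
All 3 promoters hold CCAAT in the same orientation, and the genes stood on opposite sides of the control. None of the 3 is from a ring gene or holds CCGGAAG. The windows next in exon overlap, of LSM11, LSM2 and SNRPN with 17, 18 and 20 exonic bases, hold no CCAAT. A match is a description of the letters, and binding was not measured.

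The same differences were seen from barcode to barcode. With low-UMI barcodes left out, the median barcode of the control gave 2738 CPM to the Sm ring, with the 10th and 90th percentiles at 2188 and 3399. The irradiated libraries had medians of 3811, 3967 and 2627 with rising dose. The 10th percentile at 10 mGy, 3145, was above the 75th percentile of the control, 3069. For the LSM ring the medians were 1328, 1864, 2029 and 1254, and for the SF3 genes 1477, 1495, 1530 and 1454. Cells from the same library do not replicate a dose.

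The ring differences were present at each barcode depth. Among barcodes with 10000 to 20000 UMIs, the Sm ring stood at 2826, 3887, 4007 and 2687 CPM. In barcodes under 2000 UMIs it stood at 3332, 4829, 4726 and 3661. In each of the 6 depth classes both low-dose libraries were above the other 2 for the Sm ring and for the LSM ring. Doublets were not removed. Barcodes over 3 times their own library's median UMI count numbered 26, 381, 277 and 69. That cut differed between libraries, whose medians were 19771, 13757, 12417 and 14277 UMIs. Barcodes with 40000 UMIs or more, a cut common to all libraries, numbered 446, 454, 156 and 117.

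**Figure D4:**
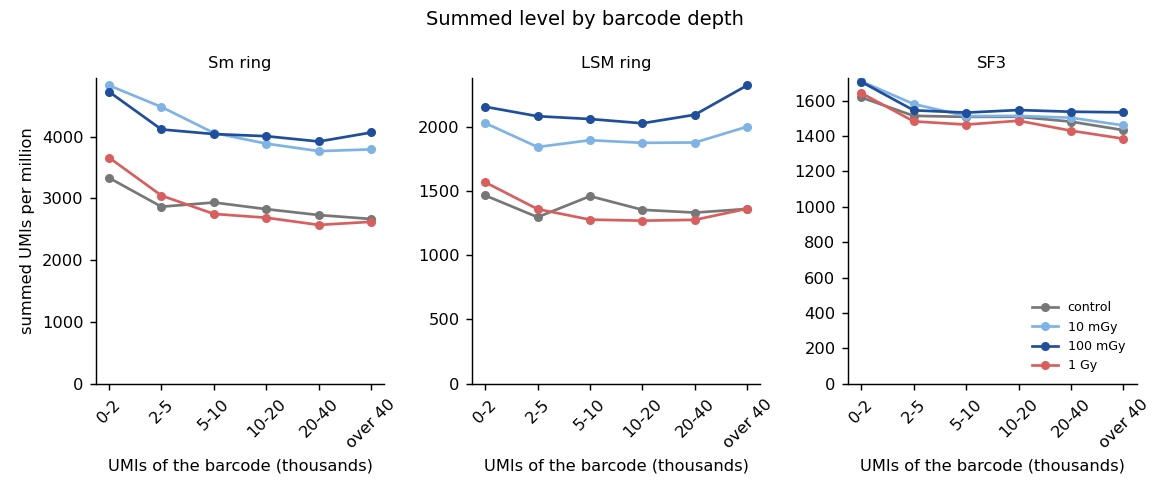
Summed CPM of the Sm ring, the LSM ring and the SF3 genes by the UMI count of the barcode, with each line 1 library and each point the pooled level of the barcodes in that class. The low-dose lines lie above the control and 1 Gy lines in every class of the 2 rings, and the 4 lines of SF3 run close together.

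Measured without scaling, the picture at 100 mGy was different. Barcodes of that library outside the low-UMI class had a median of 15108 UMIs, against 21752 in the control, 19927 at 10 mGy and 16426 at 1 Gy. By mean UMIs per barcode over these barcodes, 14 of the 34 genes were higher at 10 mGy and 11 lower, where 10.5% and 62% of all genes were. At 100 mGy 3 were higher and 15 lower, against 2.37% and 85% of all genes, and at 1 Gy 32 were lower, as were 83% of all genes. The results above are thus shares of a cell's captured RNA, and less RNA per cell and less capture per cell cannot be told apart. Barcodes outside the low-UMI class numbered 8937, 12603, 14477 and 11566. The library totals were 212804850, 285806026, 244474368 and 211752280 UMIs, and the part of barcode number in the UMIs per barcode was not tested.

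The study sought genes whose spread between cells narrows from 10 to 100 mGy. For the members the spread was taken as the SD over the mean of UMIs scaled to 10000 per barcode, in percent. All 21514 barcodes at 10 mGy and 19950 at 100 mGy were used, whereas the study describes roughly 10000 cells in each group. The cells compared here are therefore not those of the study. None of the 34 had a lower value at 100 mGy than at 10 mGy, where 1.41% of all genes did. SF3B2 was at 74.0%, 106%, 114% and 84.1%. SNRPG was at 64.4%, 65.1%, 73.0% and 80.4%.

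This count turned on which barcodes were used and on the scaling. With unscaled UMIs over all barcodes, 31 of 34 were lower at 100 mGy, beside 43.9% of all genes. SF3B2 was among them, at 107% at 10 mGy and 98.3% at 100 mGy. With low-UMI barcodes left out the count stayed at 0 of 34, beside 0.329% of all genes. With barcodes of at least 1000 genes only, which kept 16751 of 21514 at 10 mGy and 15151 of 19950 at 100 mGy, 34 of 34 were lower at 100 mGy, as were 99.5% of all genes, and SF3B2 was then at 82.1% and 59.8%. With each barcode thinned to 5000 UMIs, 18 of 34 were lower, beside 31.0% of all genes, and SF3B2 was at 89.1% and 87.7%. The last setting leaves out shallower barcodes, 2051, 8953, 5679 and 3980 in the respective libraries.

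Few members differed by much between cell cycle classes. Cells in the top 20% of a library by their share of G1/S markers were compared with cells in the lower 50% for both marker lists, and the same was done for G2/M markers. None of the 34 genes was over 1.2-fold higher or lower in all 4 libraries in G1/S cells, where 1.33% and 0.0588% of all genes were, or in G2/M cells, where 5.65% and 3.35% were. LSM11 came nearest on the low side in G2/M cells, at 0.764, 0.936, 0.784 and 0.782. LSM14B was at 1.2, 1.09, 1.24 and 1.17 and LSM14A at 1.09, 1.2, 1.31 and 1.09. The median Sm ring gene lay between 0.992 and 1.01 in G2/M cells and between 0.942 and 0.986 in G1/S cells, so these differences within a library were smaller than those between the control and the low-dose libraries. The classes are ranges cut from a score, and of the control cells 1628 lay within 10% of the G1/S limit, beside a class of 1782, and 555 within 10% of the G2/M limit.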

How the data were processed

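Single-cell RNA libraries (Chromium 3′ v3 kit per the labels) of 4 BEAS-2B cultures, 1 per dose, were analysed. UMI counts, 1 matrix per library, were deposited by the authors. The file header names Cell Ranger 7.0.1, and the submitters' processing notes name Cell Ranger, STAR and GRCh37; the annotation, intron setting and cell filters were not stated in the sources used here. Counts were summed over all deposited barcodes and divided by library totals. Ratios carry exact conditional binomial 95% intervals, for counting error only, since UMIs remove amplification copies but not preparation differences. Genes needed a mean of 10 CPM. GENCODE 29 (GRCh38), matched by gene ID for 34616 of 36601 genes, gave positions and lengths; the coding length is that of the principal transcript, or the longest complete one. Promoters came from RefSeq, without chromosome 8. The notes name GRCh37, while positions here are on GRCh38. The build used for the counts was not settled, so no coordinate comes from the files. Members and gene lists were chosen with earlier results of these data known. All members were named by role; of the pathway lists, 7 listed genes and the largest rise and fall of each list at 100 mGy, with DDX46, SLBP and EDC3, the ends of lists, and DCP1B named after their values were seen. The ratio script was tested on simulated data. Python 3.11.15, numpy 2.4.6, pandas 2.3.3, scipy 1.17.1 and matplotlib 3.10.9 were used. Alternatives were scaling, barcode filters, thinning, fold and floor.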

Additional observations from a re-analysis of the deposited data

How the results depend on the processing

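Scaling by the median ratio left 2 members lower than the control at 10 mGy and 2 at 100 mGy in place of 9 and 9. It made 1 lower at 1 Gy and made 3 higher at 100 mGy than at 10 mGy. Under it, 135 of all 8507 genes were lower at 1 Gy and 399 were higher at 100 mGy than at 10 mGy. Among members past 1.2-fold, it also turned the ratios of LSM12 at 100 mGy (1.05), SF3A3 at 10 mGy (1.00, from 0.813) and 100 mGy (1.04) and SF3B1 at 100 mGy (1.04); SF3A1 (1.07 and 1.23) and SF3B4 (1.07 and 1.14), not past 1.2-fold before, turned at both low doses. Totals without ribosomal protein and mitochondrially encoded genes gave 2 members higher at 100 mGy than at 10 mGy. Unscaled mean UMIs per barcode, which carry the lower depth of the 100 mGy and 1 Gy barcodes, gave 3 higher and 15 lower at 100 mGy, 32 lower at 1 Gy and 26 lower at 100 mGy than at 10 mGy, and turned SNRPA (0.895), SNRPC (0.986), LSM2 (0.989), LSM6 (0.933) and LSM10 (0.940) at 100 mGy. It also turned SNRPB, SNRPN, SNRPA1, LSM1 and LSM4, which had not passed 1.2-fold, at that dose and SNRPB and LSM1 at 10 mGy, so that 24 and 32 of the 34 kept their side at 100 and 10 mGy. At 1.5-fold, 8 members were higher and 1 lower at 10 mGy, and 4 were lower at 100 mGy. The shares of all genes at that fold were not set beside these counts. Nor were they for the totals without ribosomal protein and mitochondrially encoded genes, the 100 CPM floor and the barcode settings at 1 Gy below. A floor of 100 CPM, which tests fewer genes, left 4 lower at each low dose. At 1 Gy, 1 member was lower without low-UMI barcodes, with thinning to 5000 UMIs and in barcodes of 10000 to 30000 UMIs. The dispersion count of 0 became 34 with at least 1000 genes, 18 with thinning and 31 with unscaled UMIs; the cause was not tested. Of the other alternative values that answer a comparison, 96 kept within 1.5 times of their main count. No paired analysis was possible because each dose had 1 library. For the same reason no library could be left out, and counting intervals do not limit these ratios; the missing replicates do.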
